A study of Mus musculus with 18 samples.

Results

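The 10 genes described here, Egln1, Egln3, Ak4, Ankrd37, Bnip3, Vegfa, Kdm3a, P4ha1, P4ha2 and Car9, are targets of the hypoxia-inducible factors (HIFs) that encode no enzyme of glycolysis. They were taken by symbol from a table of read counts for 20295 genes, and 10 of 10 were present and passed the filter on low counts, beside 12156 genes tested in all. The list was drawn up after lipase inhibitors alone had been seen to lower the baseline of such genes in these samples, so the genes were chosen by their log2 fold change between Lipase Inh. + Vehicle and Vehicle samples. For the members that comparison is given as a description and carries no test. The rule set no numerical limit on that fall.

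The samples were BAT-LgT cells, a single line of mouse brown preadipocytes immortalized with the SV40 large T antigen and differentiated into brown adipocytes, all harvested on day 7 for RNA-seq. The 6 groups of 3 samples were Vehicle (DMSO for 3 h), ISO (the pan β-adrenergic agonist isoproterenol at 100 nM for 3 h), SR-3420 for 3 h, and the same 3 treatments after 1 h with inhibitors of the lipases ATGL and HSL. The latter are named with the prefix Lipase Inh., as in Lipase Inh. + ISO. SR-3420 is a ligand of ABHD5, the co-activator of ATGL, which it releases from perilipin so that lipolysis starts without a β-adrenergic signal. Its dose is 10 µM in the sample labels, whereas another dose stands in the study's text. The cells come from 1 line, of which the study speaks of independent experiments, so p-values measure only the spread between such repeats.

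HIFs are transcription factors made of an oxygen-regulated α subunit (HIF-1α or HIF-2α, encoded by Hif1a and Epas1) and a stable partner, ARNT. When oxygen is plentiful, prolyl hydroxylases encoded by the Egln genes mark the α subunit for capture by the VHL ubiquitin ligase and for degradation. When hydroxylation slows, the α subunit persists and binds with ARNT to sites with the core letters ACGTG or GCGTG, where it turns on genes for glycolysis, blood vessel growth, mitophagy, matrix synthesis and pH control, as well as Egln genes that feed back on it. Brown adipocytes consume much oxygen when they burn fatty acids, and β-adrenergic stimulation of brown fat is known to induce Vegfa.

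Promoter sequences show where the core letters lie in genes that behaved differently in the comparisons. In RefSeq promoters of build GRCm38.p6, which run from 250 bases before to 50 bases after a start site, all 10 members were matched, and ACGTG or GCGTG on either strand occurred in at least 1 listed promoter of 10 of them, against 68.2% of the tested genes that were matched. ACGTG alone occurred in 9 of 10 (all but Kdm3a) and in 29.4% of the tested genes. Vegfa had matches only in promoter 2 of the 2 listed, and Ak4 had ACGTG only in promoter 4 of 4, so these 2 genes count through alternative start sites. The members' promoters held between 49.0% and 86.0% G and C, beside a median of 60.7% over promoters of tested genes. The match shares were not adjusted for this content. Since the members were listed as HIF targets, the shares describe the list and test nothing about these cells. The 5 printed here, 5′ to 3′ on the strand of the gene, are those of Ankrd37 and Bnip3, whose inhibitor effects depended on the stimulus in opposite directions, of Egln3, which along with Ak4 fell most with inhibitors and SR-3420, and of the collagen hydroxylase pair P4ha1 and P4ha2, which moved alike. Capitals mark each ACGTG or GCGTG, read on either strand (CACGT or CACGC on the reverse), and overlapping matches form 1 run.
Ankrd37 (chr8:45999801-46000100, minus strand): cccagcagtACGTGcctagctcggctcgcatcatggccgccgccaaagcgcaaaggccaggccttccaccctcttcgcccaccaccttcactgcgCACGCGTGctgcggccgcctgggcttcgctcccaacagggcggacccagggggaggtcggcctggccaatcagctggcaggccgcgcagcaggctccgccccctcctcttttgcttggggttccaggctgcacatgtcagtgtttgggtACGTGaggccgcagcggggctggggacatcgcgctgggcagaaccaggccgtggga
Bnip3 (chr7:138909457-138909756, minus strand): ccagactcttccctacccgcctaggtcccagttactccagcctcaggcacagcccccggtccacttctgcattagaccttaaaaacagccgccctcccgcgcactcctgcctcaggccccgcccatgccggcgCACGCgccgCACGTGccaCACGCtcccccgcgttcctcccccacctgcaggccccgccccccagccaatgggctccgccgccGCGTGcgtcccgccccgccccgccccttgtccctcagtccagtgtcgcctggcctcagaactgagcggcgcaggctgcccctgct
Egln3 (chr12:54203825-54204124, minus strand): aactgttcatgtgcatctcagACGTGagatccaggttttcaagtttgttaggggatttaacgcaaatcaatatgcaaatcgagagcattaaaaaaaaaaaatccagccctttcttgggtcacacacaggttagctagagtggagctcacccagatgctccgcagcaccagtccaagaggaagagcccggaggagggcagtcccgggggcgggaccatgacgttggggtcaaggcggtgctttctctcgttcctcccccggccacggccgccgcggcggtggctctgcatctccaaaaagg
P4ha1 (chr10:59323046-59323345, plus strand): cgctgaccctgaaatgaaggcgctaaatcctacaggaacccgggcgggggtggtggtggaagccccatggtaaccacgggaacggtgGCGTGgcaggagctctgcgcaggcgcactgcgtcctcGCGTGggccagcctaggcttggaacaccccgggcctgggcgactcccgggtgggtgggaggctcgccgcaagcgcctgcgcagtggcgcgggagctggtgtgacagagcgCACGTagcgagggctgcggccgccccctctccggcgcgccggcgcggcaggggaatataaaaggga
P4ha2 (chr11:54100674-54100973, plus strand): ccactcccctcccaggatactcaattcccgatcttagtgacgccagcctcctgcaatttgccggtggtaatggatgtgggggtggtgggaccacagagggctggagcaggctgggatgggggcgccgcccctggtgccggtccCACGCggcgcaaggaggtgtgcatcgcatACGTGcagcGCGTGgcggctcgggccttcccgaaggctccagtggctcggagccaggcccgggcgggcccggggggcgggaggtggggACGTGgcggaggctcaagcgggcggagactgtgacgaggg
In Ankrd37 the matches started 241, 155, 152 and 6 bases before the start site. Bnip3 had 5, starting between 117 and 35 bases before it, among them a palindromic CACGTG. Egln3 had 1, starting 229 bases upstream. A match is a run of letters and not a measured binding site.

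The libraries held 10310447 to 21205032 counts, except Lipase Inh. + SR-3420 replicate 2, which held 4263755 and in which the gene Lars2 took 18.3% of counts (0.0397% to 0.121% in the other 17). Counts of members in tests that use that library are therefore given with and without it, as are the members' inhibitor effects with SR-3420. Counts for the other gene lists given below were not repeated without it. Adipocyte markers were present (7 of 8 passed the filter, summing to 12310 to 16140 CPM, the counts normalized to library sizes scaled by TMM factors), as were 8 of 9 brown adipocyte markers (388 to 2395 CPM, highest with ISO). Lep and Dio2 did not pass. Preadipocyte markers (4 of 4 passed) summed to 24.6 to 45.3 CPM, macrophage markers (1 of 5, with Ptprc at 0) to 2.34 to 6.30, endothelial markers (0 of 4) to at most 0.901 and skeletal muscle markers (2 of 4, with Myf5 at 0) to 0.809 to 2.55. In these bulk samples a lower level can be fewer expressing cells or less RNA per cell, which cannot be told apart.

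Per kilobase of counted length, Bnip3 was the most abundant member in Vehicle samples at 603 ± 24.6 CPM/kb (SD, n = 3 here and for every mean), followed by Vegfa (317 ± 25.6), Egln1 (115 ± 2.05) and Egln3 (103 ± 6.17). P4ha1 (39.7 ± 1.87) and Kdm3a (35.9 ± 3.18) came next and differed by about their spread. The lowest were Ankrd37 (14.4 ± 1.62), Car9 (10.6 ± 1.91), P4ha2 (7.69 ± 0.309) and Ak4 (6.71 ± 0.478). With Lipase Inh. + ISO, Egln1 reached 222 ± 10.9 and Egln3 216 ± 5.35 CPM/kb, whereas Bnip3 was at its lowest, 464 ± 48.3.

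**Figure D1:**
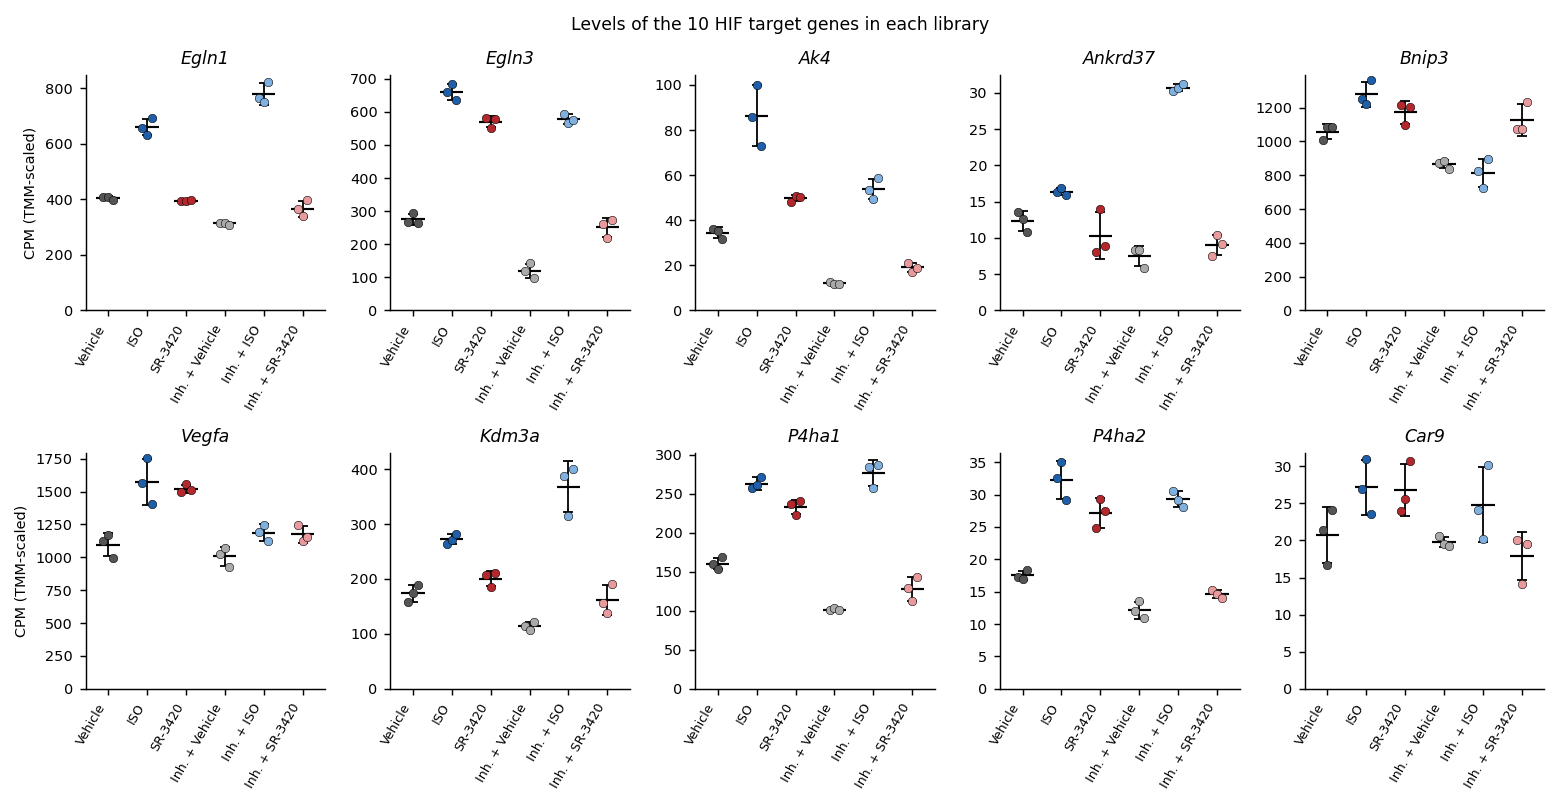
CPM (y axis, linear, from 0) of each member in the 18 libraries by group (x axis; Inh., lipase inhibitors). Points are libraries, horizontal lines means and bars SD (n = 3). Ankrd37, Kdm3a and Egln1 were highest with inhibitors and ISO together, whereas Ak4 and Egln3 were highest with ISO alone.

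Resting cells were compared with and without inhibitors, the contrast by which the genes were chosen. All 10 log2 fold changes were below 0, from -1.51 (Ak4) to -0.065 (Car9), with a median of -0.57 against -0.0017 over all genes tested. In 8 members every Lipase Inh. + Vehicle sample was below every Vehicle sample, which held for 7.40% of all genes tested. Vegfa and Car9 overlapped, so for these 2 the data do not show the lowered baseline that the list was chosen for. The other changes were -1.20 ± 0.096 (SE) for Egln3, -0.73 ± 0.17 for Ankrd37, -0.66 ± 0.073 for P4ha1, -0.59 ± 0.10 for Kdm3a, -0.54 ± 0.11 for P4ha2, -0.37 ± 0.061 for Egln1, -0.29 ± 0.078 for Bnip3 and -0.12 ± 0.081 for Vegfa.

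Whether the inhibitors acted in the same way on stimulated cells was asked in samples that had no part in the choice. With SR-3420, 7 of 10 members were lower with inhibitors than without and none was higher (edgeR quasi-likelihood test, Benjamini-Hochberg adjusted p at most 0.05, which is what "passed the test" means throughout), where 20.9% of all genes tested were lower and 18.9% higher. Ak4 and Egln3 fell more than 2-fold, as did 2.57% of genes. With ISO, by contrast, 3 members were higher with inhibitors (Ankrd37, Kdm3a and Egln1), 3 were lower (Ak4, Bnip3 and Vegfa) and 4 did not pass, against 21.0% and 21.6% of genes, so the members' shares were near the background in both directions, and none passed at 2-fold (2.44% of genes higher and 4.29% lower). The median over members was -0.45 with SR-3420 and -0.13 with ISO, against 0.016 and 0.0012 over all genes.

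The difference between the 2 inhibitor effects, that with ISO minus that with SR-3420, was itself tested. It passed for 8 members, 7 of them in the direction of a smaller fall or a rise with ISO (17.4% of genes) and Bnip3 in the other (16.9% of genes). Ankrd37 stood at 1.12 ± 0.24, adjusted p = 0.000931, and was the one member past 2-fold (2.92% of genes higher), but at 0.86 and below 2-fold without SR-3420 replicate 2, so that its place at the head of the members rests on that library. The other 6 that passed as higher were Egln3 (0.98 ± 0.13), P4ha1 (0.92 ± 0.10), P4ha2 (0.75 ± 0.14), Kdm3a (0.73 ± 0.14), Ak4 (0.68 ± 0.15) and Egln1 (0.35 ± 0.086). Bnip3 stood at -0.60 ± 0.11, adjusted p = 0.000232. Vegfa did not pass (-0.035 ± 0.11, adjusted p = 0.842, 95% interval -0.26 to 0.19), nor did Car9 (0.42 ± 0.22, adjusted p = 0.148, interval -0.0080 to 0.84). Without Lipase Inh. + SR-3420 replicate 2 the count stayed at 8, 7 and 1 by direction, and the count for inhibitors with SR-3420 was 6 in place of 7. The inhibitor effects with SR-3420 were then -1.31 for Ak4, -1.09 for Egln3, -0.90 for P4ha2, -0.78 for P4ha1, -0.45 for Car9, -0.34 for Vegfa, -0.21 for Kdm3a, -0.28 for Ankrd37, -0.056 for Egln1 and -0.020 for Bnip3. When all libraries were thinned to the size of that library, 5 members passed the test of the difference.

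**Figure D2:**
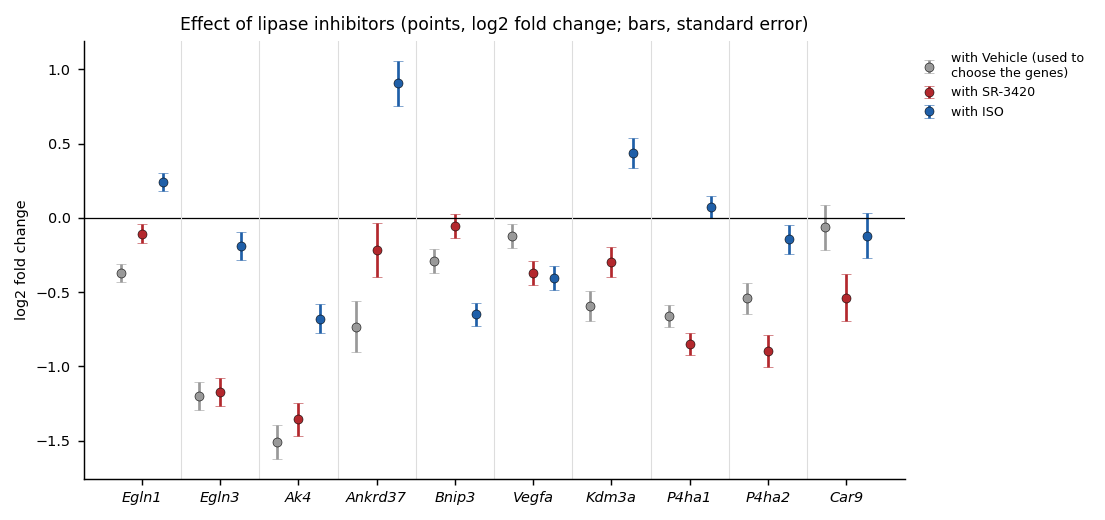
Log2 fold change (y axis) with lipase inhibitors in cells given Vehicle (grey, the contrast that chose the genes), SR-3420 (red) or ISO (blue), for each member (x axis). Points are edgeR estimates and bars SE. Red points lie below 0 throughout, whereas blue points reach 0.91 for Ankrd37 and -0.68 for Ak4.

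Egln3 and Egln1 encode the oxygen-sensing prolyl hydroxylases PHD3 and PHD2. Egln3 was at 266, 294 and 265 CPM in Vehicle replicates 1 to 3 and at 119, 142 and 99.5 in Lipase Inh. + Vehicle. It stood at 582, 552 and 577 CPM with SR-3420 and at 262, 219.6 and 273 with Lipase Inh. + SR-3420. With ISO it was at 659, 683 and 636 CPM, and with Lipase Inh. + ISO at 594, 566 and 574. The SR-3420 samples fell with inhibitors to near the level of untreated Vehicle, while the ISO samples stayed far above it. Resting cells also fell with inhibitors (-1.20 ± 0.096). Against Lipase Inh. + Vehicle, SR-3420 thus still stood higher by 1.08 ± 0.096, beside 1.05 ± 0.094 without inhibitors. The former value uses the samples chosen for being low and was not tested. The inhibitor effect was -1.17 ± 0.095, adjusted p = 3.73e-09, with SR-3420 and -0.19 ± 0.092, adjusted p = 0.102, with ISO, the latter not passing although the ISO samples did not overlap. In a fit of only the groups compared it passed (-0.20, adjusted p = 0.0147).

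Egln1 followed another course. It was at 409, 410.1 and 397 CPM in Vehicle and at 396, 395 and 397 with SR-3420, and inhibitors left the SR-3420 level at 365, 339 and 396. ISO samples held 658, 633 and 692 CPM and Lipase Inh. + ISO samples 766, 751 and 824, while Lipase Inh. + Vehicle samples held 316, 316 and 308. Every sample with both inhibitors and ISO was thus above every ISO sample (0.24 ± 0.061, adjusted p = 0.00279). With SR-3420 the inhibitor effect did not pass (-0.11 ± 0.062, adjusted p = 0.180, interval -0.23 to 0.014), but passed when Lipase Inh. + SR-3420 replicate 3 was left out (-0.17, adjusted p = 0.0408).

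Ak4 and Bnip3 encode mitochondrial proteins, an adenylate kinase that exchanges phosphate between nucleotides and a receptor for mitophagy. Ak4 was at 36.3, 35.3 and 31.7 CPM in Vehicle, 12.8, 11.8 and 11.8 in Lipase Inh. + Vehicle, 48.2, 50.7 and 50.2 with SR-3420 and 21.3, 17.1 and 18.9 with Lipase Inh. + SR-3420. It reached 86.0, 100.2 and 73.1 CPM with ISO and 53.2, 49.6 and 58.7 with Lipase Inh. + ISO. Samples with inhibitors lay below those without for each of the 3 treatments, with no overlap. Its inhibitor effect was -1.36 ± 0.11, adjusted p = 4.32e-09, with SR-3420 and -0.68 ± 0.097, adjusted p = 6.60e-06, with ISO.

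Bnip3 was at 1009, 1085 and 1083 CPM in Vehicle and 873, 886 and 838 in Lipase Inh. + Vehicle. SR-3420 samples stood at 1218, 1096 and 1203 CPM and Lipase Inh. + SR-3420 samples at 1075, 1073 and 1236, which overlapped. ISO samples stood at 1250.1, 1223 and 1364 CPM and all 3 Lipase Inh. + ISO samples were lower, at 824, 725 and 894. The inhibitor effect was -0.65 ± 0.078, adjusted p = 6.00e-07, with ISO, and -0.055 ± 0.078, adjusted p = 0.608, with SR-3420 (interval -0.21 to 0.098). Bnip3 was thus the member for which inhibitors lowered the ISO level and for which no change with SR-3420 was detected.

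P4ha1 and P4ha2 encode the catalytic subunits of the 2 main collagen prolyl 4-hydroxylases, which stabilize the collagen triple helix. P4ha1 was at 159.9, 153 and 168 CPM in Vehicle, 236, 223 and 241 with SR-3420 and 257, 261 and 272 with ISO. With inhibitors it was at 100.4, 104 and 100.4 CPM in Lipase Inh. + Vehicle. It was at 129, 112 and 143 CPM in Lipase Inh. + SR-3420 and at 284, 258 and 287 in Lipase Inh. + ISO. The Lipase Inh. + SR-3420 samples lay below untreated Vehicle, though above Lipase Inh. + Vehicle (log2 fold change 0.35 ± 0.075, not tested). ISO samples overlapped with and without inhibitors. The inhibitor effect was -0.85 ± 0.074, adjusted p = 1.02e-08, with SR-3420 and 0.072 ± 0.071, adjusted p = 0.442, with ISO (interval -0.067 to 0.21). P4ha2, the rarer of the pair, ran from 24.8 to 29.4 CPM with SR-3420 and from 14.0 to 15.2 with Lipase Inh. + SR-3420 (-0.90 ± 0.11, adjusted p = 7.74e-07). With ISO it ran from 29.1 to 35.0 CPM and with Lipase Inh. + ISO from 28.1 to 30.6 (-0.14 ± 0.096, adjusted p = 0.239, interval -0.33 to 0.043). Both subunit genes therefore passed with SR-3420 and not with ISO in the inhibitor contrasts, and P4ha3, a related subunit gene, did not pass with SR-3420 (-0.18 ± 0.20, adjusted p = 0.506) and fell with ISO (-0.54 ± 0.20, adjusted p = 0.0374).

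Kdm3a and Ankrd37 are the members that rose with inhibitors in ISO-treated cells along with Egln1. Kdm3a, a histone H3K9 demethylase that brown adipocytes use to express thermogenic genes, was at 158, 174 and 189 CPM in Vehicle, 115, 108 and 122 in Lipase Inh. + Vehicle and 264, 270.2 and 283 with ISO. It reached 388, 315 and 401 CPM with Lipase Inh. + ISO, all 3 above every other sample of the study (0.44 ± 0.099, adjusted p = 0.00117). With SR-3420 it stood at 206, 186 and 210.1 CPM and with Lipase Inh. + SR-3420 at 157, 138 and 191, which overlapped. That fall passed the test (-0.30 ± 0.10, adjusted p = 0.0243) but was lost in 4 of 6 fits that left out 1 sample, those without Lipase Inh. + SR-3420 replicate 1 or 2 or SR-3420 replicate 1 or 3 (without Lipase Inh. + SR-3420 replicate 2, -0.21, adjusted p = 0.129).

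Ankrd37 encodes a small ankyrin repeat protein that is little characterized beyond its induction by HIF-1. It was at 13.6, 12.6 and 10.9 CPM in Vehicle, 8.38, 8.32 and 5.89 in Lipase Inh. + Vehicle and 16.4, 16.9 and 16.0 with ISO. With Lipase Inh. + ISO it stood at 30.3, 30.7 and 31.3 CPM, above every other sample of the study (0.91 ± 0.15, adjusted p = 5.42e-05). SR-3420 samples held 8.08, 14.0 and 8.91 CPM, of which replicate 2 stood apart, and Lipase Inh. + SR-3420 samples 7.57, 10.4 and 9.16. The inhibitor effect with SR-3420 did not pass (-0.22 ± 0.18, adjusted p = 0.363, interval -0.58 to 0.14) and was 0.042 without SR-3420 replicate 2. Its span overlaps Ufsp2 by 49 bases and use of strand in counting is not stated, so reads from the shared end could be counted for either gene.

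Vegfa encodes the main growth factor for blood vessels and Car9 a membrane carbonic anhydrase that regulates pH outside the cell. Vegfa ran from 1494 to 1555 CPM with SR-3420 and from 1127 to 1247 with Lipase Inh. + SR-3420, without overlap (-0.37 ± 0.081, adjusted p = 0.000924). With ISO it ran from 1405 to 1753 CPM and with Lipase Inh. + ISO from 1124 to 1246, again without overlap (-0.41 ± 0.081, adjusted p = 0.000319). Vegfa was thus lowered with either stimulus, and the difference between the falls, -0.035 ± 0.11, did not pass. Car9 was at 24.0, 25.6 and 30.8 CPM with SR-3420 and 20.0, 14.1 and 19.5 with Lipase Inh. + SR-3420 (-0.54 ± 0.16, adjusted p = 0.00938), a call that was lost without SR-3420 replicate 3 (-0.43, adjusted p = 0.0599). With ISO it was at 26.9, 31.0 and 23.6 CPM and with Lipase Inh. + ISO at 24.1, 20.1 and 30.2, which overlapped (-0.12 ± 0.15, adjusted p = 0.555, interval -0.41 to 0.17).

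The same groups were compared by stimulus, to see which members each agent raised. Contrasts against Vehicle share the Vehicle samples with the contrast that chose the genes, and those against Lipase Inh. + Vehicle share the inhibitor samples chosen for being low. A rise in the latter is built in by the choice, so these are given as values with no test. Against Vehicle the choice favours a fall of a member and works against a rise. ISO without inhibitors raised 10 of 10 members (26.8% of genes), from 0.27 ± 0.078 (adjusted p = 0.00550) for Bnip3 to 1.33 ± 0.10, adjusted p = 3.70e-10 for Ak4. Egln3 (1.26 ± 0.094) was the other member past 2-fold (5.03% of genes). P4ha2 (0.88 ± 0.10), Egln1 (0.71 ± 0.061), P4ha1 (0.71 ± 0.072), Kdm3a (0.65 ± 0.10), Vegfa (0.52 ± 0.081), Ankrd37 (0.40 ± 0.16) and Car9 (0.40 ± 0.15) lay between. Scaling by total counts alone shifted the median gene by -0.31, left 6 members past the test (Ankrd37, Bnip3, Car9 and Vegfa were lost) and put Bnip3 at -0.033. The Ankrd37 call was also lost in 5 of 6 fits that left out 1 sample, all but that without Vehicle replicate 1, and the Car9 call in 4, those without replicate 1 or 2 of ISO or Vehicle (without ISO replicate 2, 0.38, adjusted p = 0.0984, for Ankrd37 and 0.29, adjusted p = 0.156, for Car9).

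SR-3420 without inhibitors raised 6 members (26.0% of genes). Egln3 rose most (1.05 ± 0.094, adjusted p = 7.43e-09) and alone passed at 2-fold (3.97% of genes), then P4ha2 (0.63 ± 0.099), P4ha1 (0.54 ± 0.072), Ak4 (0.53 ± 0.10), Vegfa (0.47 ± 0.081) and Car9 (0.38 ± 0.15). Egln1 was at -0.033 ± 0.061, adjusted p = 0.676, Bnip3 at 0.15 ± 0.078, adjusted p = 0.121, Kdm3a at 0.21 ± 0.10, adjusted p = 0.0843 and Ankrd37 at -0.28 ± 0.17, adjusted p = 0.174, none of which passed. Kdm3a passed without Vehicle replicate 3 (0.27, adjusted p = 0.0456). Without SR-3420 replicate 2, Ankrd37 passed as lower (-0.54, adjusted p = 0.00596), a fall against Vehicle that the choice of the genes favours. With total counts alone 5 were higher and 1, Ankrd37, lower (-0.44). The Car9 call was lost in 3 of 6 fits that left out 1 sample, those without SR-3420 replicate 3 and Vehicle replicate 1 or 2 (lowest 0.25, adjusted p = 0.207).

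In the presence of inhibitors, against Lipase Inh. + Vehicle, the log2 fold change with ISO was 2.27 ± 0.098 for Egln3, 2.16 ± 0.11 for Ak4 and 2.04 ± 0.16 for Ankrd37. It was 1.68 ± 0.10 for Kdm3a, 1.45 ± 0.074 for P4ha1, 1.32 ± 0.062 for Egln1 and 1.28 ± 0.10 for P4ha2. Car9 (0.34 ± 0.15), Vegfa (0.24 ± 0.081) and Bnip3 (-0.087 ± 0.078) had the smallest values. With SR-3420 in the presence of inhibitors the values ran from -0.096 ± 0.16 for Car9 to 1.08 ± 0.096 for Egln3, with 0.68 ± 0.12 for Ak4, 0.51 ± 0.10 for Kdm3a, 0.38 ± 0.078 for Bnip3, 0.35 ± 0.075 for P4ha1 and 0.23 ± 0.062 for Egln1. Egln3 was highest in both, but next to Ak4 it also fell most in the Lipase Inh. + Vehicle samples that serve as baseline here. Bnip3 was the one member with a higher value for SR-3420 than for ISO.

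**Figure D3:**
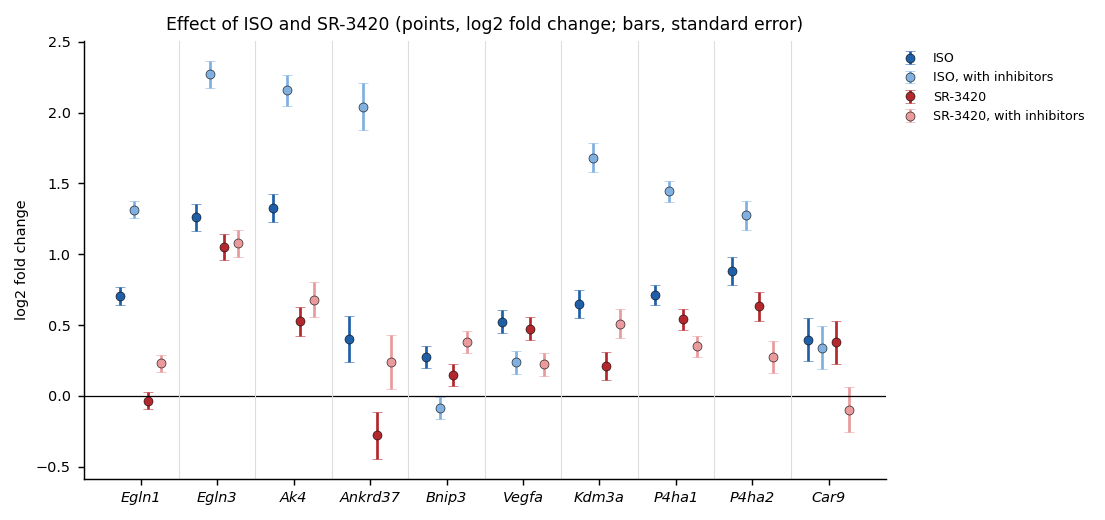
Log2 fold change (y axis) of each member (x axis) with ISO (blue) and SR-3420 (red), without inhibitors (dark, against Vehicle) and with them (light, against Lipase Inh. + Vehicle). Points are edgeR estimates and bars SE. The light blue point lies highest for 7 members, up to 2.27 for Egln3, and for Bnip3 lies at -0.087. Light points are measured against samples chosen for being low, so their height is partly built in by the choice and was not tested.

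ISO and SR-3420 were also set against each other, in contrasts that share no sample with the one that chose the genes. Without inhibitors 4 members were higher with ISO (15.8% of genes): Ak4 (0.80 ± 0.097, adjusted p = 2.38e-06), Egln1 (0.74 ± 0.061), Ankrd37 (0.68 ± 0.16) and Kdm3a (0.44 ± 0.10). None of the 10 was lower (13.9% of genes) and none passed at 2-fold (1.23% of genes higher). Egln3, P4ha2, P4ha1, Vegfa, Bnip3 and Car9 did not pass, with log2 differences of 0.21 (interval 0.029 to 0.39), 0.25 (0.062 to 0.44), 0.17 (0.032 to 0.31), 0.051 (-0.11 to 0.21), 0.13 (-0.026 to 0.28) and 0.019 (-0.27 to 0.31). Egln3 (0.21, adjusted p = 0.0192) and P4ha1 (0.17, adjusted p = 0.0471) passed in a fit of only the groups compared. P4ha2 passed without ISO replicate 3 (0.31, adjusted p = 0.028) or SR-3420 replicate 2 (0.30), and P4ha1 without Lipase Inh. + SR-3420 replicate 2 (0.17, adjusted p = 0.0448). With inhibitors 8 members were higher with ISO (28.6% of genes) and Bnip3 was lower (28.3% of genes), 9 in all and 8 without Lipase Inh. + SR-3420 replicate 2. Ankrd37 (1.80 ± 0.17, adjusted p = 1.02e-08), Ak4 (1.48 ± 0.11), Egln3 (1.19 ± 0.095), Kdm3a (1.17 ± 0.10), P4ha1 (1.10 ± 0.074), Egln1 (1.09 ± 0.062) and P4ha2 (1.00 ± 0.11) passed at 2-fold (5.34% of genes), and Car9 (0.44 ± 0.16, adjusted p = 0.0234) lost its call without Lipase Inh. + SR-3420 replicate 2 (0.35, adjusted p = 0.0818) or Lipase Inh. + ISO replicate 3 (0.26). Bnip3 was at -0.47 ± 0.078, adjusted p = 2.46e-05, and Vegfa at 0.016 ± 0.081, adjusted p = 0.882 (interval -0.14 to 0.17).

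The mRNAs of the HIF subunits were measured in the same samples. Of 5 subunit genes 4 were tested, since Hif3a had at most 9 counts in a sample. Hif1a stood at 146 ± 6.95 CPM with Vehicle, 383 ± 58.6 with ISO and 325 ± 31.4 with SR-3420, and at 159 ± 6.58, 173 ± 5.22 and 177 ± 19.1 with inhibitors. It rose with ISO (1.40 ± 0.096, adjusted p = 8.23e-11) and with SR-3420 (1.16 ± 0.095, adjusted p = 2.22e-09) and was lower with inhibitors in both (-1.14 ± 0.095 with ISO and -0.88 ± 0.096 with SR-3420). With inhibitors neither ISO (0.12 ± 0.095, adjusted p = 0.273) nor SR-3420 (0.16 ± 0.096, adjusted p = 0.471) passed the test for Hif1a. In resting cells the inhibitor effect on Hif1a was 0.13 ± 0.095, adjusted p = 0.659. Epas1 rose with inhibitors and ISO (0.28 ± 0.070, adjusted p = 0.00286), and Arnt with ISO alone (0.24 ± 0.074, adjusted p = 0.00814), by less than the -0.31 by which scaling by total counts shifted the median gene in that contrast. Arnt2 passed no test. These are mRNA levels, and the amounts of HIF proteins were not measured here.

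Of 13 genes that regulate HIF, none passed with inhibitors alone, but neither did 99.1% of all genes tested, so this is no result about the regulators. The largest changes elsewhere were in Siah2, a ubiquitin ligase that targets prolyl hydroxylases. Siah2 rose from 23.9 ± 1.29 CPM to 67.5 ± 2.11 with ISO and 97.3 ± 2.63 with SR-3420, and was lower with inhibitors (-1.22 ± 0.073 with ISO and -1.48 ± 0.074, adjusted p = 2.35e-12, with SR-3420). Siah1a moved the same way (0.73 ± 0.079 with ISO, -0.71 ± 0.079 with inhibitors and ISO). Cul2, the scaffold of the VHL ligase, rose with ISO (0.79 ± 0.091) and SR-3420 (0.49 ± 0.091), and Vhl with ISO (0.50 ± 0.078), from which inhibitors lowered it (-0.57 ± 0.078, adjusted p = 3.33e-06). Egln2, the prolyl hydroxylase that is not a member, fell with ISO (-0.65 ± 0.091) and SR-3420 (-0.59 ± 0.090) and was higher with inhibitors (0.25 ± 0.092 and 0.45 ± 0.093, adjusted p = 0.000577, respectively). In all, 3 regulators were higher and 4 lower with inhibitors and ISO (21.0% and 21.6% of all genes tested). With inhibitors and SR-3420, 2 were higher and 4 lower (18.9% and 20.9% of genes).

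**Figure D4:**
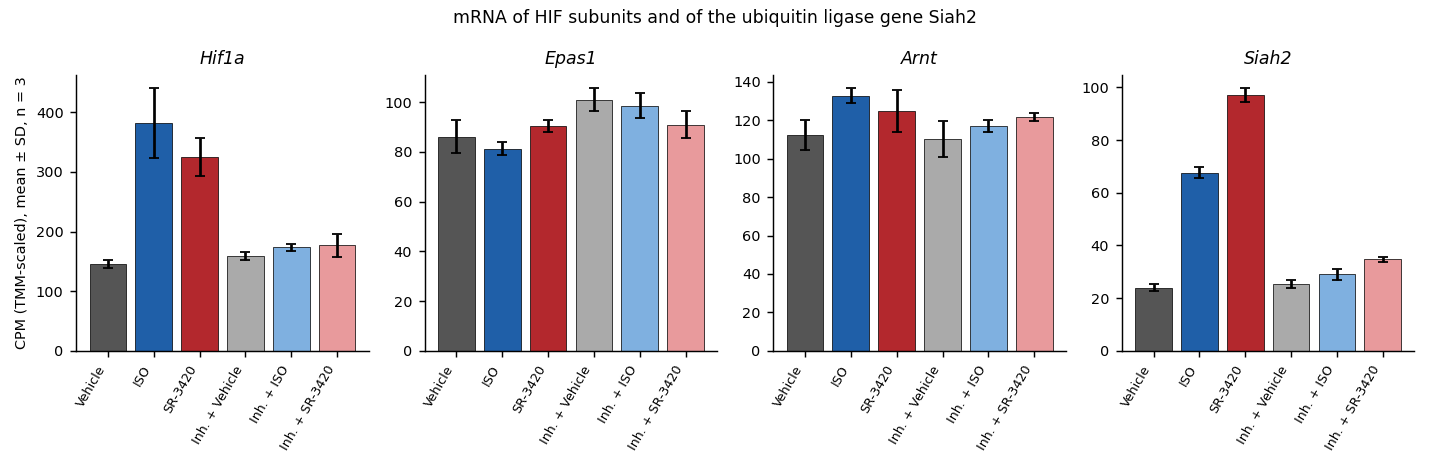
Mean CPM (y axis, linear, from 0) of Hif1a, Epas1, Arnt and Siah2 in the 6 groups (x axis; Inh., lipase inhibitors). Bars are means and error bars SD (n = 3). Hif1a and Siah2 were highest with ISO and with SR-3420, and Siah2 with Lipase Inh. + SR-3420 (34.7 ± 0.950) stood between Vehicle (23.9 ± 1.29) and SR-3420 (97.3 ± 2.63).

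Other HIF targets were counted beside the members, in lists made with results of these data known. Among 23 glycolytic targets, 9 were lower and none higher with inhibitors alone (0.428% and 0.485% of genes), at a median of -0.31. That contrast prompted the choice of the members, so counts of HIF targets in it are a description and lend the choice no support. With SR-3420, inhibitors lowered 16 (20.9% of genes) and raised none (18.9%), at a median of -0.53. With ISO they raised 6 (21.0%) and lowered 4 (21.6%), at a median of 0.0090. The difference between these effects passed as higher with ISO for 14 (17.4% of genes) and as lower (16.9%) for 1, Slc2a3 (-1.70 ± 0.34). The members' split was 7 and 1. The lactate exporter gene Slc16a3 had the largest difference (2.30 ± 0.17, adjusted p = 1.61e-09), falling with inhibitors and SR-3420 (-1.88 ± 0.13) but rising with inhibitors and ISO (0.42 ± 0.10), as Kdm3a did among the members. The glucose transporter gene Slc2a1 (-1.49 ± 0.15 with SR-3420 and -1.01 ± 0.14 with ISO) and the hexokinase gene Hk2 (-1.35 ± 0.13 and -0.96 ± 0.13) were lower with both, as were Ak4 and Vegfa.

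Of 42 other non-glycolytic targets 39 were tested. With inhibitors alone, 4 were lower (0.428% of genes) and none higher (0.485%), at a median of -0.13. With SR-3420, 24 were lower (20.9%) and 7 higher (18.9%), at a median of -0.36. With ISO, 19 were lower (21.6%) and 4 higher (21.0%), at a median of -0.28. The difference passed as higher with ISO for 11 (17.4%) and as lower for 6 (16.9%). Hilpda, which encodes an inhibitor of ATGL on lipid droplets, fell most with inhibitors (-2.95 ± 0.19 with ISO and -4.03 ± 0.21 with SR-3420). Ddit4, an inhibitor of mTORC1, fell with SR-3420 (-1.53 ± 0.12) and did not pass with ISO (-0.20 ± 0.12, adjusted p = 0.183, difference 1.33 ± 0.17), the pattern of Egln3, P4ha1 and P4ha2. The transferrin receptor gene Tfrc rose with inhibitors and ISO (1.08 ± 0.11), whereas the lipoprotein receptor gene Vldlr fell (-1.89 ± 0.13). Of 19 paralogs of the members 16 were tested, and none passed with inhibitors alone, where 99.1% of all genes tested did not pass either. With inhibitors and SR-3420, 1 was lower and 4 higher (20.9% and 18.9% of genes). With inhibitors and ISO, 6 were lower and 2 higher (21.6% and 21.0%). Bnip3l, the nearest relative of Bnip3, was higher with inhibitors and SR-3420 (0.37 ± 0.13, adjusted p = 0.0264), where Bnip3 did not pass. Jmjd1c, a relative of Kdm3a, was lower with inhibitors and ISO (-0.54 ± 0.095, adjusted p = 8.18e-05), where Kdm3a was higher. P4ha3, Bnip3l and Jmjd1c did not reach 2-fold and were chosen after their values were seen.

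**Figure D5:**
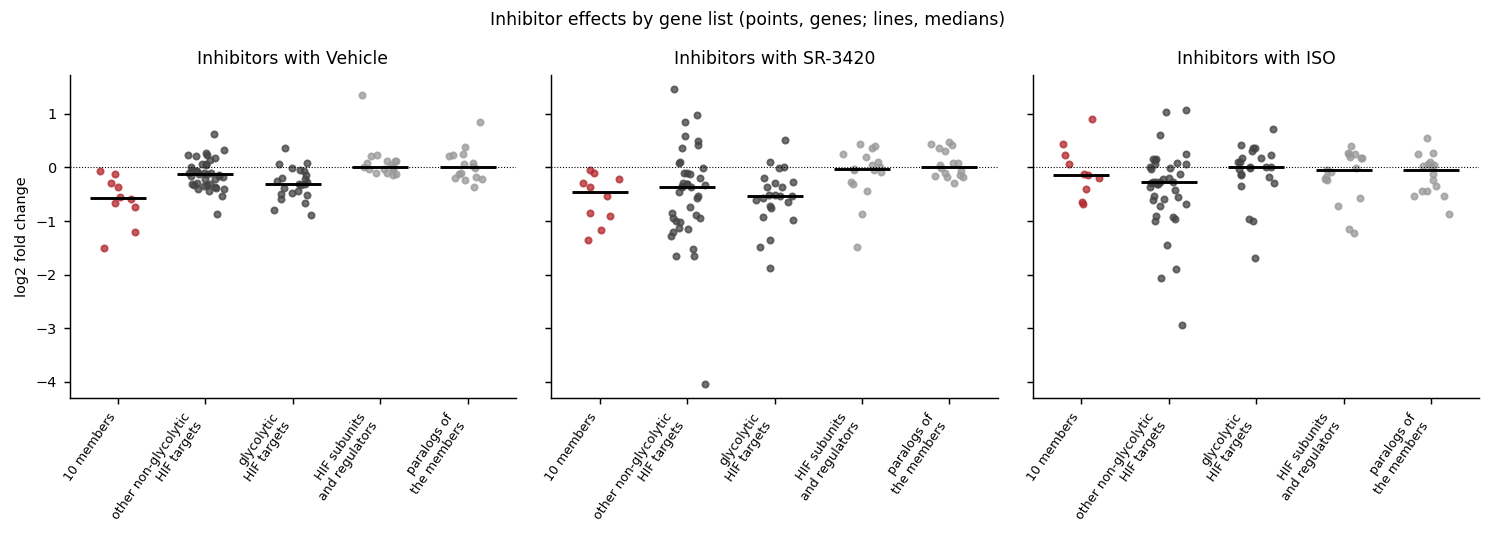
Log2 fold change (y axis) with lipase inhibitors in cells given Vehicle (left, the contrast that chose the members), SR-3420 (middle) and ISO (right), for genes of 5 lists (x axis). Points are genes and lines medians. The members' median was -0.57, -0.45 and -0.13 and that of glycolytic targets -0.31, -0.53 and 0.0090.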

How the data were processed

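RNA from 18 samples in 6 groups was sequenced from TruSeq libraries. The authors aligned reads to mouse build mm9 with STAR 2.4.2a, made tag directories with HOMER, for which the study's methods state a limit on reads kept per position, and used iRNA-seq to count reads over RefSeq genes, strand use not being stated. A limit of that kind would compress the most abundant genes. Among the members Bnip3 and Vegfa had the most counts per counted base, at most 13.1 and 8.34 in a library. Whether their changes were compressed was not tested. The deposited table holds whole-number counts, neither normalized nor filtered, with position and length columns, and 0 columns of other samples. Groups and replicate numbers came from the sample titles. Here, counts were fitted in R 4.3.3 with edgeR 4.0.16 (filterByExpr, minimum count 10, minimum total 15, 12156 genes kept, TMM factors, 1 quasi-likelihood model over all samples), with p-values adjusted by Benjamini-Hochberg over all genes in each of 10 contrasts, of which the members were not tested in the one that chose them, and are given no test in the 2 against Lipase Inh. + Vehicle. Log2 fold changes are given with SE, and 95% intervals rest on that SE. The count scale for levels was CPM.

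The members and lists were chosen with earlier results of these data known. Named genes were the members, HIF subunits and regulators, and up to 3 genes per direction and contrast of each other list ranked by size of change among those that passed the test and 2-fold. The script was tested on simulated data. Alternatives were DESeq2 1.42.0, RLE factors, total counts, no filter, only the groups compared, a replicate block, thinning and leaving out each sample. Depth limits the rarest members, and the precision given covers only the spread between samples.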

Additional observations from a re-analysis of the deposited data

Results flagged for a closer look

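The inhibitor effect differed between ISO-treated and SR-3420-treated cells, by an edgeR test of the difference itself, for 8 members (log2, ISO minus SR-3420): Egln1 0.35, Egln3 0.98, Ak4 0.68, Ankrd37 1.12, Bnip3 -0.60, Kdm3a 0.73, P4ha1 0.92 and P4ha2 0.75. All 8 remained past the test in every fit that left out 1 sample, and Ak4, Ankrd37 and Egln1 did not pass when all libraries were thinned to the smallest.

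In 4 further pairs of contrasts, with each sample set against the mean of its comparison group, every sample of one moved one way and every sample of the other the opposite way. The SR-3420 effect on Egln1 was above 0 with inhibitors and slightly below 0 without them, a log2 difference of 0.26 ± 0.087 (SE). Without inhibitors it was only -0.033 ± 0.061, with overlapping samples, so no fall was detected there. The inhibitor effect was below 0 in resting cells and above 0 with ISO for Egln1 (difference 0.61 ± 0.086), Ankrd37 (1.64 ± 0.23) and Kdm3a (1.03 ± 0.14). These 4 differences contain the contrast by which the genes were chosen and were not tested. The fall in resting cells was part of that choice. No share of such pairs over all genes was computed, so their number is no result about the members.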

How the results depend on the processing

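Directions and calls were the same as in the report with RLE factors and with DESeq2 for all 10 members in all contrasts. Requiring 2-fold as well left 1 member for the difference between inhibitor effects, 0 for inhibitors with ISO and 2 for inhibitors with SR-3420. It left 0 for ISO against SR-3420, 2 for ISO and 1 for SR-3420. Thinning to the smallest library gave 5 members for the difference and a median of -0.45 with inhibitors alone, with fewer counts for the rarest members. It reversed Car9 in ISO against SR-3420 (-0.17) and with SR-3420 and inhibitors (0.029). P4ha2 in ISO against SR-3420 (-0.032) and Vegfa in the difference (0.042) were reversed too. Total counts alone gave 6 members for ISO, and moved the median gene by -0.31 with ISO and at most 0.061 in the inhibitor contrasts. This scaling reversed Bnip3 with ISO (-0.033), with SR-3420 (-0.013) and between them (-0.020). In ISO against SR-3420 it reversed Car9 (-0.13) and Vegfa (-0.097), and Vegfa also there with inhibitors (-0.098). The cause of these changes was not tested beyond the scaling itself. Fitting only the groups compared gave 7 members for inhibitors with ISO (Egln3 gained), 6 for ISO against SR-3420 (Egln3 and P4ha1 gained) and 7 for SR-3420 (Kdm3a gained, 0.21). Leaving out the filter on low counts changed no call of a member in the contrasts to which the report gives a test. The 2 contrasts against Lipase Inh. + Vehicle, to which the report gives no test, were left out of these counts.

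Leaving out 1 sample at a time reversed values that had not passed, over these ranges: Ankrd37 inhibitors with SR-3420 -0.36 to 0.042, Car9 inhibitors alone -0.20 to 0.041, inhibitors with ISO -0.30 to 0.0024 and ISO against SR-3420 -0.087 to 0.13, and Vegfa in the difference -0.11 to 0.054, ISO against SR-3420 -0.037 to 0.13 and the same with inhibitors -0.020 to 0.062. The counts of members ranged from 5 to 8 for inhibitors with SR-3420, stayed at 6 for inhibitors with ISO and at 8 for the difference, and ranged from 8 to 9 for ISO. Fits without Lipase Inh. + SR-3420 replicate 2 in contrasts that do not use it were added after seeing the data. They gave 5 members in place of 4 for ISO against SR-3420.

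Replicate numbers are shared by all groups, and the check used pointed to pairing for numbers 2 and 3 but not for number 1. The mean correlation of deviations was -0.012, 0.15 and 0.19 for numbers 1 to 3, with lowest pairs at -0.11, 0.075 and 0.11. Of 18 samples, 12 correlated best with their own number. The main model held no replicate block. With the replicate number as a block, 6 members passed for ISO against SR-3420 and 7 for SR-3420, and the counts for the other tested contrasts did not move.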

Other observations

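Outside the members, the 10 genes whose log2 CPM over the 18 samples ran most like the members' mean standardized level were Gys1 (Pearson r = 0.973), Sema3g (0.973), Pla2g12a, Ddit4, Pex19, Eif1ad, Ppme1, Tbl2, Atg101 and Alkbh5. Gys1 encodes muscle-type glycogen synthase, Ddit4 an inhibitor of mTORC1 and Alkbh5 an RNA demethylase, and Gys1 and Ddit4 are also on the lists of HIF targets used here. Among the members, the level of P4ha1 (r = 0.973), P4ha2 (0.971), Ak4 (0.969) and Egln3 (0.968) followed the mean of the other 9 most closely, then Kdm3a (0.868), Egln1 (0.808), Vegfa (0.712), Car9 (0.684) and Ankrd37 (0.652), and Bnip3 least (0.231). These correlations describe 18 samples in 6 groups that share treatments and library sizes, and carry no test.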
